A study of Mus musculus with 2 samples.

Results

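Nnt and 9 other genes of mitochondrial NADPH and redox metabolism were followed in cells prepared as gut epithelium. The cells came from wild-type (WT) mice and from mice lacking Lrrc19 (Lrrc19 KO). Nnt encodes nicotinamide nucleotide transhydrogenase, an enzyme of the inner mitochondrial membrane that uses the proton gradient to pass a hydride from NADH to NADP+. The NADPH made in this way is spent in the matrix by the glutathione and thioredoxin systems, which remove hydrogen peroxide. One C57BL/6 substrain, C57BL/6J, is known to carry an Nnt allele that lacks several exons and makes no active enzyme, whereas C57BL/6N carries the intact gene.

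Of the 18193 genes that had a single-gene probe set on the Affymetrix mouse genome array, these 10 genes (Nnt, Idh2, Me1, Me2, Glud1, Prdx3, Txnrd2, Txn2, Gsr, and Sod2) were chosen by name around Nnt, and Nnt was selected on its difference between these same arrays. What follows is therefore a description, and the difference of Nnt supports nothing by itself. All probe sets whose single platform gene symbol was one of the 10 were taken, which gave 27 probe sets. A probe set is a group of short probes read out as 1 intensity, in arbitrary units.

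The study compared 2 samples. Each was a pool of total RNA in equal parts from 5 mice, of which 2 were male and 3 female, aged 6 weeks, on a C57BL/6 background and kept free of specific pathogens. The WT pool carried no engineered allele and the Lrrc19 KO pool carried the deletion of Lrrc19, a leucine-rich repeat receptor of the gut epithelium. The labels give no C57BL/6 substrain for either pool. By the study's methods, C57BL/6 mice came from an animal center and the knockout line from earlier work of the same group. The paper describes WT and KO mice as cohoused and, for its survival data, as littermates, but the labels do not say whether the pooled mice were littermates. The cells were shaken off the intestine with EDTA, and T cells, B cells, DCs, and macrophages were then taken out by magnetic sorting.

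Each genotype had 1 array, so the variation among mice was not measured and nothing was tested. A pool gives 1 value for 5 mice, so an even level in all mice cannot be told apart from a mixture of high and low ones. In RNA of mixed cells, fewer cells of a type also cannot be told apart from less RNA per cell. A floor of 127, the median of all probe set intensities, was set for low values. Differences are on the log2 scale as Lrrc19 KO minus WT, and a gene was counted as lower or higher when it differed at least 2-fold. The nearest thing to an error in these data is the SD between probe sets of 1 gene, which was 0.22 over 4528 genes for which 2 or more probe sets reached the floor in each of the pools. It covers the probes but not the mice. Lrrc19, the targeted gene, had an intensity of 905 in the WT pool and 212 in the Lrrc19 KO pool on its brighter probe set. On its other probe set, it had 391 in WT and was under the floor in KO (20.9). The 212 of the targeted gene is above the floor, so a value above the floor does not by itself show an intact transcript.

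Nnt was the single member past 2-fold in the values as deposited, and none was past it with the arrays centred on control genes (Nnt at -0.96) or with all probe sets of a gene averaged (Nnt at -0.68). On its brightest probe set, the WT pool had an intensity of 1044 and the Lrrc19 KO pool one of 487. On the next one, it was 809 and 357. Both probe sets were lower in the Lrrc19 KO pool, by 2.15-fold and 2.26-fold (log2 differences of -1.10 and -1.18), and their gap of 0.08 was smaller than the SD between probe sets of a gene. The level in the Lrrc19 KO pool was thus 46.6% and 44.2% of that in the WT pool, and still well above the floor.

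The dimmest Nnt probe set stayed under the floor (99.3 in WT and 117 in KO) and carries no information on the difference. The brightest probe set can match several transcripts, as the suffix of its name marks, but the next one does not have that mark. The position of the probes relative to the exons missing in C57BL/6J was not used here, so these intensities do not show which allele the mice carried. A probe set outside the deleted part would also read a transcript that makes no enzyme.

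Across all 12518 genes at or above the floor in at least 1 pool, 0.407% were lower by 2-fold or more in the Lrrc19 KO pool and 0.559% were higher. Of the 10 members, 1 was lower (Nnt) and none was higher, and because Nnt was selected on this difference, nothing is read from that count. From the lowest difference upward, Nnt ranked 34 of 12518. Among the same 4528 genes, 7 (0.155%) were lower by 2-fold or more on every such probe set, and Nnt was among these 7. The rank of Nnt and its place among the 7 come from the difference that selected it, so nothing is read from them either.

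**Figure D1:**
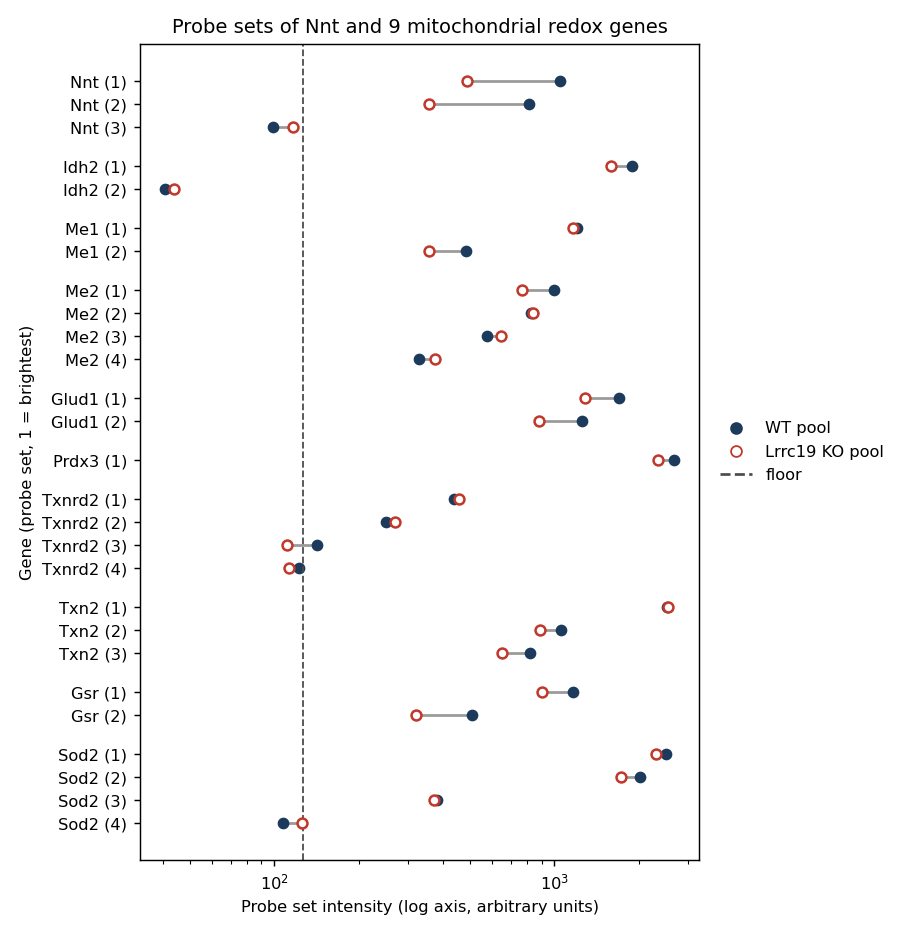
Intensity (log axis, arbitrary units) of the 27 probe sets of the 10 genes, with filled points for WT, open points for Lrrc19 KO, and numbers by brightness within a gene. A dashed line marks the floor (127), and errors are not drawn since each point is 1 array. The first and second probe sets of Nnt were apart by 2.15-fold and 2.26-fold, more than any other pair of points at or above the floor.

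The other enzymes that can make NADPH or feed its production in mitochondria were nearer to each other in both pools. Idh2, the mitochondrial isocitrate dehydrogenase that reduces NADP+, was measured on 1 probe set with 1896 in WT and 1596 in KO (log2 difference -0.25). Its second probe set was under the floor (40.8 and 44.0). Glud1, the glutamate dehydrogenase of the matrix, was lower on both probe sets, with 1706 in WT and 1285 in KO on the brighter one (-0.41) and 1256 and 884 on the other (-0.51). By brightest probe sets, Glud1 had the largest difference after Nnt among the members, and it did not reach 2-fold. With all probe sets of a gene averaged, Gsr (-0.51) came before Glud1 (-0.46).

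The malic enzymes gave unequal values between their own probe sets. For Me1, the cytosolic NADP-dependent malic enzyme, the brightest probe set was at 1199 in WT and 1167 in KO (-0.04), whereas the other was at 483 and 358 (-0.43). For Me2, the mitochondrial malic enzyme that works mainly with NAD+, the brightest probe set was lower in KO (993 and 764, -0.38). The 3 others were slightly higher, at 826 and 836 (0.02), 573 and 646 (0.17), and 328 and 374 (0.19). No single direction can therefore be given for Me2.

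RefSeq promoter windows (250 bases before to 50 bases after an annotated start, GRCm38.p6) were searched for 2 short motifs, as a description of the sequence around the enzymes named above. Of the 10 genes, 7 had an entry, with 8 windows, and Nnt, Me2, and Gsr had none. The motif TGACNNNGC, the core of the antioxidant response element bound by NRF2, was searched on both strands and was found in 12.4% of all 32851 windows and in 1 of the 8. The motif GCATGCGC, the core bound by nuclear respiratory factor 1 (NRF1), was found in 2.71% of all windows and in 1 of the 8. The windows with a match are shown around it because Me1 is a known NRF2 target with almost equal intensities on its brightest probe set and Glud1 came next to Nnt by brightest probe sets. Capitals mark the motif, and bases run 5′ to 3′ along the gene. The stretch of Me1 lies at chr9:86695905-86695990 (minus strand), and its motif begins 6 bases before the start. The stretch of Glud1 lies at chr14:34310525-34310672 (plus strand), and its motif begins 132 bases before the start.
Me1: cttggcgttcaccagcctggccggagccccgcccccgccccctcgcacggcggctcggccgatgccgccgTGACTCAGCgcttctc
Glud1: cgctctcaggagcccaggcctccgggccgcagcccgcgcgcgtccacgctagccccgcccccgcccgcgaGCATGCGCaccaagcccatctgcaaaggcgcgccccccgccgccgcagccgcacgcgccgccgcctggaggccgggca
A match shows these letters in the window and no binding.

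The genes that spend the NADPH on peroxide were measured next. Gsr, the glutathione reductase that restores glutathione with NADPH, was lower on both probe sets, with 1165 in WT and 905 in KO (-0.36) and 509 and 322 (-0.66). Txnrd2, the mitochondrial thioredoxin reductase, had nearly equal intensities on the brightest probe set (437 and 458, 0.07) and on the next (249.8 and 269.7, 0.11). Of its dimmer probe sets, one reached the floor in WT alone (142 and 111) and the other in neither pool (123 and 113). Txn2, the mitochondrial thioredoxin that Txnrd2 reduces, was at 2528 in WT and 2549 in KO on the brightest probe set (0.01). Its 2 other probe sets were lower in KO, with 1054 and 887 (-0.25) and 818 and 650.2 (-0.33), so the probe sets of Txn2 did not share a direction.

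Prdx3, the peroxiredoxin that removes hydrogen peroxide in the matrix, had 1 probe set, with 2674 in WT and 2351 in KO (-0.19). Sod2, the manganese superoxide dismutase that turns superoxide into hydrogen peroxide, was at 2502 and 2302 on its brightest probe set (-0.12). Its next probe sets were at 2027 and 1728 (-0.23) and at 381 and 372 (-0.03). Its dimmest probe set did not reach the floor (107 and 126). For Prdx3, Sod2, Txn2, and Txnrd2, the differences on the brightest probe sets were smaller than the SD between probe sets of a gene.

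Of the 27 probe sets, 22 reached the floor in WT and in KO alike. Of these 22, 16 were lower in the Lrrc19 KO pool, 6 were higher, and 2 were past 2-fold, both of Nnt. By brightest probe sets, 8 of the 10 genes had a difference below 0, beside 47.9% of all genes. Nnt, selected on its difference, is among the 8. The count was 6 with the arrays centred on control genes, 7 after quantile normalization, and 10 with equal medians. The share of all genes was not counted in those settings. The median over the 10 genes was -0.22, and over the 9 without Nnt it was -0.19, beside 0.01 over all genes. In rank from the lowest difference, Glud1 was at 8.63% of the 12518 genes, Me2 at 9.98%, Gsr at 10.8%, Idh2 at 18.6%, and the others lay between 24.2% (Prdx3) and 58.4% (Txnrd2). Medians of this size depend on how the arrays were scaled, and the median of all genes moves with them. Over the 10 genes, the median was -0.08 with the arrays centred on control genes, beside 0.16 over all genes. After quantile normalization, it was -0.17, beside 0.0073 over all genes. The 18 spike-in probe sets were all higher on the KO array (median log2 difference 0.50).

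**Figure D2:**
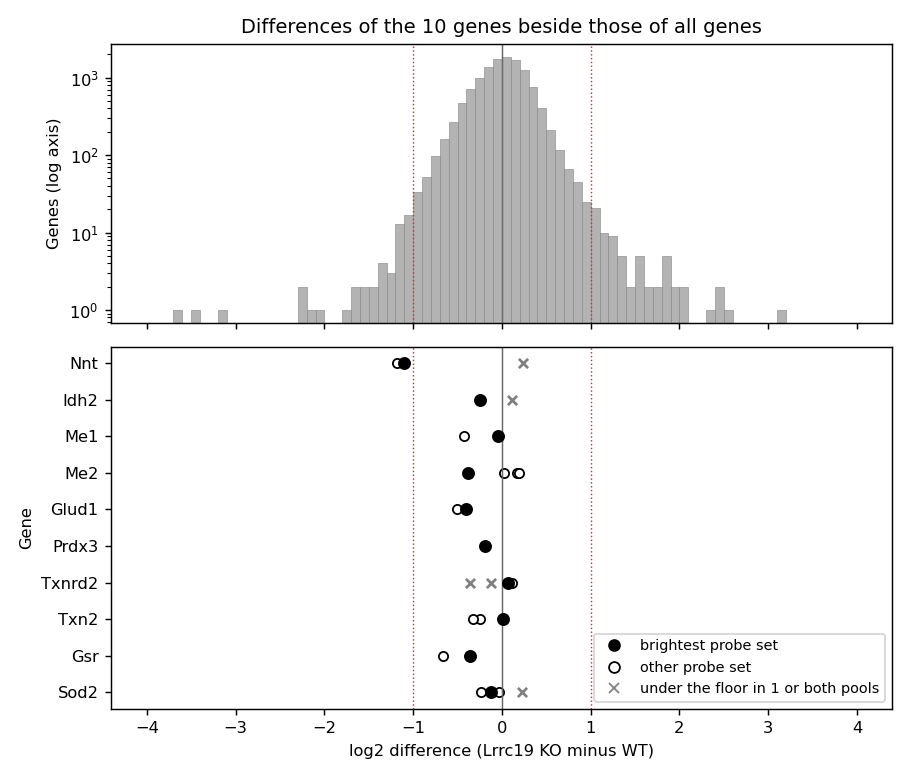
Upper panel, number of genes (log axis) by log2 difference (Lrrc19 KO minus WT) for the 12518 genes at or above the floor; lower panel, the difference of each probe set of the 10 genes on the same axis. Dotted lines mark 2-fold, and no error bars are drawn because each genotype had 1 array. Both brighter probe sets of Nnt (-1.10 and -1.18) lie to the left of the 2-fold line, and all others lie between the lines.

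Lists of related genes were described by their counts and medians beside those of all genes. Over all genes, 0.407% were lower and 0.559% were higher by 2-fold or more, and the median was 0.01. Among 10 measured genes of mitochondrial NADPH supply, 1 was lower by 2-fold (Nnt), none was higher, and the median was -0.31. Because Nnt was selected on this difference, nothing is read from that count, and Nnt also enters the median. Next to Nnt, the largest differences were those of Nadk2, the mitochondrial NAD kinase that makes NADP+ (465 in WT and 331 in KO, -0.49), and Mthfd2l, a folate enzyme of the matrix (297 and 214, -0.47). Me3, the other mitochondrial malic enzyme, was under the floor (58.5 and 64.2). With all probe sets of a gene averaged, including those under the floor, the median of this list was -0.03. With probe sets that can match several transcripts left out, it was -0.39, so its size depends on which probe sets are read.

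None of 11 genes of cytosolic NADPH supply passed 2-fold, and their median was -0.08. The largest differences were those of Pgls, which acts in the oxidative pentose phosphate pathway (1463 in WT and 1055 in KO, -0.47), and Idh1, the cytosolic isocitrate dehydrogenase (3122 and 2463, -0.34). None of 10 genes of NAD and NADP synthesis passed 2-fold either, and 5 of the 10 had a difference below 0. Apart from Nadk2, the largest difference among them was that of Qprt, an enzyme of NAD synthesis from tryptophan (128 and 159, 0.31).

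Of 15 genes that remove peroxide and superoxide in mitochondria, none passed 2-fold, and the median was -0.06. Gstk1, a glutathione transferase of mitochondria and peroxisomes, was at 1565 in WT and 927 in KO (-0.76). Glrx2, the mitochondrial glutaredoxin, was at 979 and 633 (-0.63). None of 22 other genes of the thioredoxin, glutathione, and peroxide systems, mainly of the cytosol, passed 2-fold (median -0.14). The largest differences there were those of Prdx4, a peroxiredoxin of the endoplasmic reticulum (1683 and 987, -0.77), and Prdx2 (2758 and 2053, -0.43).

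The targets of NRF2, the transcription factor of the antioxidant response, had a median of -0.17 over 15 measured genes, none past 2-fold. Gsta4, a glutathione transferase for lipid aldehydes, was at 1479 in WT and 815 in KO (-0.86). Nqo1, a quinone reductase and a classic NRF2 target, was at 1206 and 706 (-0.77). Hmox1, the inducible heme oxygenase, did not reach the floor (32.9 and 33.1). Among 7 measured genes of the NADPH oxidases, which use NADPH to make superoxide or hydrogen peroxide, none passed 2-fold (median -0.15). The largest differences there had opposite signs. Cyba, the p22phox subunit, had 1694 in WT against 1016 in KO (-0.74), and Duoxa2, the maturation factor of DUOX2, was at 201 and 334 (0.73).

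Genes for the general content of mitochondria stood beside the members. Of 30 measured genes of the matrix enzymes, import machinery, and carriers, none passed 2-fold, 23 had a difference below 0, and the median was -0.15. Over all genes, 47.9% had a difference below 0, and the median was 0.01. With the arrays centred on control genes, the median of the 30 was -0.02, beside 0.16 over all genes. The largest differences were those of Suclg1, a subunit of succinyl-CoA ligase (5159 in WT and 3411 in KO, -0.60), and Idh3a, a subunit of the NAD-dependent isocitrate dehydrogenase (3079.5 and 2272, -0.44). The median of the 9 members other than Nnt was -0.19, and whether it differs from that of these 30 genes was not tested.

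**Figure D3:**
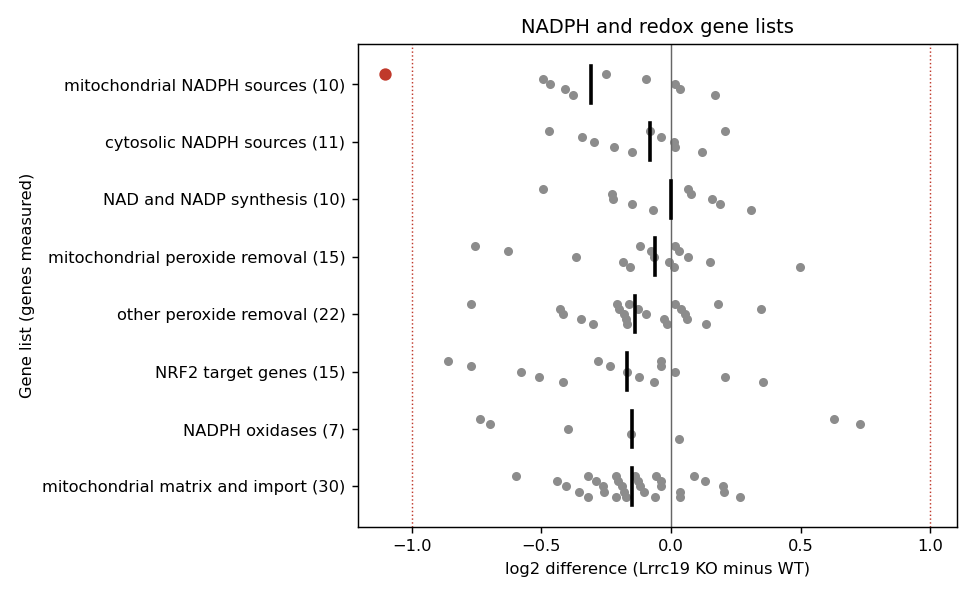
log2 difference (Lrrc19 KO minus WT) of each measured gene (points, brightest probe set) in 8 gene lists, with the median of each list (black bar) and the number of genes measured in parentheses. Nnt (red, -1.10) is the one point past a dotted 2-fold line, and the list medians lie between -0.31 and 0.

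Because one C57BL/6 substrain lacks part of Nnt, genes beside it on the chromosome and other genes known to differ in expression between substrains were read as well. Of the 5 genes on each side of Nnt in the RefSeq order, 6 had single-gene probe sets (15 in all), and 3 of these genes were at or above the floor. Paip1, a poly(A)-binding protein partner, was at 707 in WT and 559.6 in KO (-0.34). The neighbor 4833420G17Rik was higher in KO (642 and 853, 0.41). Ccl28, a mucosal chemokine, was slightly higher on its brightest probe set (1202 and 1414, 0.23). Its other probe sets were at 215 and 234 (0.13) and at 172 in both pools (0.0075). None of these genes passed 2-fold, and by brightest probe sets they did not share a direction. Fgf10 (47.7 and 36.2), 3110070M22Rik (43.2 and 37.2), and Tmem267 (61.3 and 108) did not reach the floor in either pool.

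Wdfy1, which encodes an endosomal protein, is known to differ in expression between C57BL/6 substrains. On each of the 3 probe sets that reached the floor, its intensity was lower in KO. Their intensities in WT and KO were 858 and 479, 776 and 405, and 505 and 272, with folds of 1.79, 1.92, and 1.86. The log2 differences of -0.84, -0.94, and -0.89 did not reach 2-fold, and they differed among themselves by less than the SD between probe sets of a gene. On its brightest probe set, Wdfy1 ranked 119 of 12518 from the lowest difference (0.951%). Its 2 dimmer probe sets did not reach the floor (125 and 116, and 51.3 and 52.4). Gabra2, a GABA receptor subunit known for a substrain difference in the brain, was under the floor on all 5 probe sets. The 4 probe sets of Entpd4 carry several gene symbols and were not used here. The substrain of the mice was not tested.

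**Figure D4:**
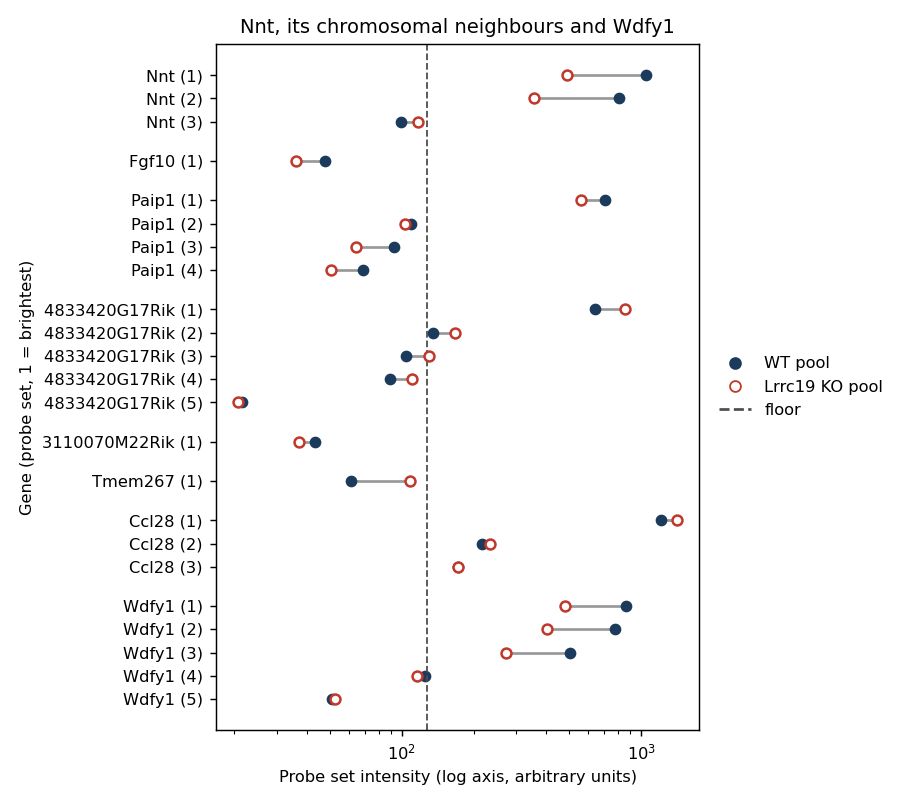
Intensity (log axis, arbitrary units) of the probe sets of Nnt, its chromosomal neighbors, and Wdfy1, with filled points for WT, open points for Lrrc19 KO, and numbers by brightness within a gene. A dashed line marks the floor (127), and errors are not drawn since each point is 1 array. The brighter probe sets of Nnt and Wdfy1 were all lower in KO. By brightest probe sets, Paip1 was lower and 4833420G17Rik and Ccl28 were higher.

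Markers of other cells differed between the pools beside Nnt. Of 8 measured adipocyte markers, 3 were lower by 2-fold or more (Car3, Adipoq, and Fabp4), beside 0.407% of all genes. The list did not move as a whole, since 6 of the 8 had a difference below 0. Cidec (276 in WT and 304 in KO, 0.14) and Plin4 (337 and 372, 0.14) were slightly higher. Pck1 (-0.05) and Pnpla2 (-0.12) were nearly equal. The 8 summed to 7141 in WT and 3349 in KO. Most of that gap was Car3, with 2940.5 in WT and 278 in KO, whereas Adipoq, a defining marker, had 313 in WT and fell under the floor in KO (24.4). All 10 smooth muscle markers reached the floor in each genotype and were higher in KO (summed intensity 60199.6 in WT and 79103 in KO, each of the 10 by less than 2-fold). The 12 epithelial markers, all at or above the floor, summed to 112494 in WT and 117210.3 in KO (median log2 difference 0.05), and 7 fibroblast markers summed to 22096 and 22859.7. The 13 measured leukocyte markers summed to 7688 and 6899, with Cd79a, Itgam, and Cd68 under the floor. Of 13 colon markers, 5 were higher by 2-fold or more (64492 and 79276 summed), whereas of 11 small intestine markers 1 was lower by 2-fold or more (Osr2, 472 and 215), with sums of 6264 and 6309.7. The lowest value on each array was 1, so no marker could be at 0, and only values above the floor were read as presence. The smooth muscle marker Acta2 (12549 in WT and 14996 in KO) and the leukocyte marker Ptprc (982 and 953) were well above the floor. Neither pool was therefore epithelium alone. The part of these cells in the differences of Nnt and the other members was not tested. The 3' over 5' ratio, a sign of RNA integrity, was 4.14 in WT and 5.89 in KO for the transferrin receptor, 1.26 and 1.50 for Gapdh, and 1.75 and 1.77 for Actb, and the part of RNA quality was not tested either.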

How the data were processed

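The authors deposited 1 linear intensity per probe set for each of 2 arrays (biotin-labelled total RNA, 1 pool per genotype). The submitters' processing notes name RMA without a version, and the scaling between the arrays is unknown. Of 45101 probe sets, 64 were controls, 34945 carried 1 gene symbol in the platform annotation (34741 of these in the RefSeq table of GRCm38.p6), 932 carried several, and 9160 were unnamed here. Values were used as deposited, on the log2 scale. A gene was read on its brightest probe set, and was counted when at or above a floor of 127 in at least 1 pool. At 2-fold, 51 genes were lower and 70 were higher. The number of arrays limits the precision, and no test was run. Pathway genes were named by the largest differences of each fixed list. The members and lists were chosen with earlier results of these data known. Alternatives were other scalings, floors, a pseudocount of 32, and averaged or transcript-specific probe sets. The calculation was tested on simulated data. Python 3.11.15, pandas 2.3.3, NumPy 2.4.6, and matplotlib 3.10.9 were used.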

Additional observations from a re-analysis of the deposited data

How the results depend on the processing

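Over 10 alternatives, 314 values were compared with those as deposited, and 16 had another sign. None went from 2-fold one way to 2-fold the other. With differences this small such a reversal was hardly possible, so its absence says little. The difference of Nnt on its brightest probe set ran from -1.60 to -0.96. With the arrays centred on 8 control genes, it was -0.96 (other probe set -1.04), so 0 members and 0 genes of mitochondrial NADPH supply were past 2-fold. With all probe sets averaged, including the Nnt probe set under the floor, Nnt was at -0.68, the counts of members and of mitochondrial NADPH supply past 2-fold were 0, and the median of that list was -0.03. With a floor of 354, the median of the NADPH oxidases was -0.57. Centring on the spike-ins, chosen after seeing the data, lowered every difference by 0.50. Nnt was then at -1.60 and -1.68, and the median of the members was -0.71 (without Nnt -0.68). The list medians were -0.81 for mitochondrial and -0.58 for cytosolic NADPH supply, -0.50 for NAD and NADP synthesis, -0.56 for mitochondrial and -0.64 for other peroxide removal, -0.67 for NRF2 targets, -0.77 for NADPH oxidases, and -0.65 for matrix and import. Past 2-fold were 2 mitochondrial and 1 other peroxide gene, 4 NRF2 targets, 2 oxidase genes, and 1 matrix gene. Over all genes, 51 lower and 70 higher became 76 and 53 with equal medians, 26 and 114 with control genes, and 657 and 22 with spike-ins, so the split between lower and higher rests on the scaling. Of Me1, Sod2, Txn2, and Txnrd2, the signs turned between scalings (Me1 -0.54 to 0.10). Across all settings, the medians of cytosolic NADPH supply (-0.58 to 0.06) and mitochondrial peroxide removal (-0.56 to 0.08) also turned sign. So did those of NADPH oxidases (-0.77 to 0.03) and of NAD and NADP synthesis (-0.50 to 0.14). No paired analysis was possible because each genotype had 1 pool, and no array could be left out.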
